A study of Mus musculus with 8 samples.

Results

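The genes described here are 2 metallothioneins, *Mt1* and *Mt2*, and 5 zinc or manganese transporters, *Slc39a14*, *Slc39a8*, *Slc39a4*, *Slc30a1* and *Slc30a10*, in mouse liver. They were chosen by name, by a rule that uses no measured value, from a list drawn up when earlier results of these data were known, and they make up 7 of the 23282 rows counted. All 7 were found, each on 1 row, and all 7 passed the filter on low counts. The study examined LGK974, an inhibitor of Wnt signaling, in mice made endotoxemic with lipopolysaccharide (LPS), the endotoxin of gram-negative bacteria. The mice were C57BL/6 males, 4 weeks old, according to the labels. The control group received saline, the endotoxemic group received 25 mg/kg LPS, and the LGK974 group received 60 mg/kg LGK974 with 25 mg/kg LPS, these LGK974 group doses coming from the study's text because its labels give neither dose nor LPS. The methods place liver collection 6 h after LPS, with LGK974 given 2 h ahead of LPS in most of the experiments. The labels use "Control" for mice that received LPS and "Normal" for mice that received saline, so the group names of the study are used here. No library of mice given LGK974 without LPS was analysed here.

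Metallothioneins are small, cysteine-rich proteins that bind zinc and copper in the cytosol, and the liver makes them in quantity during the acute-phase response. Members of the Slc39a family (ZIP) carry zinc, and in some cases manganese or iron, into the cytosol, while members of the Slc30a family (ZnT) carry zinc or manganese out of it. Many zinc-handling genes carry metal response elements, short DNA motifs to which the zinc-sensing factor MTF1 binds. Metallothionein genes are also known to respond to glucocorticoids and to interleukin 6.

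The upstream sequences of the members are shown because the most abundant transcripts described below come from genes known for such elements. Both strands were searched for the core of the element, TGCACNC or TGCGCNC, in windows from 250 bases before to 50 bases after each RefSeq start on GRCm38.p6. Of the 7 genes, 5 had a window in the promoter set used, and *Slc39a14* and *Slc39a4* were missing from that set. The 250 bases before the start, all on the plus strand, are given for *Mt1* (chr8:94178839-94179088), *Mt2* (chr8:94172368-94172617), *Slc30a1* (chr1:191906531-191906780) and *Slc30a10* (chr1:185454598-185454847), and capitals mark each match, read on either strand.
Mt1: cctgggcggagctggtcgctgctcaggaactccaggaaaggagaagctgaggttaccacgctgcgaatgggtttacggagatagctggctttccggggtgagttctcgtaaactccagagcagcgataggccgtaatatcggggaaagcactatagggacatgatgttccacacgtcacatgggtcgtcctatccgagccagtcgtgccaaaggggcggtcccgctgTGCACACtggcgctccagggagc
Mt2: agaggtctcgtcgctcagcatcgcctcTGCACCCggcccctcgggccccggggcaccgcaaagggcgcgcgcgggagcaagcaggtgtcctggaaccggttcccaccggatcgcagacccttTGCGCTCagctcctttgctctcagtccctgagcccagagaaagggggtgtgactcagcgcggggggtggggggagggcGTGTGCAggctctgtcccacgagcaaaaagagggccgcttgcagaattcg
Slc30a1: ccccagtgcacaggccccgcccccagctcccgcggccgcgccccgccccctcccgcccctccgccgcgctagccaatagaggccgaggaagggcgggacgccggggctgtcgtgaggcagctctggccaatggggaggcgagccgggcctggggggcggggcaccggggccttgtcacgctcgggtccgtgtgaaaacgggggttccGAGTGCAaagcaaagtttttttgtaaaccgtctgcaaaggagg
Slc30a10: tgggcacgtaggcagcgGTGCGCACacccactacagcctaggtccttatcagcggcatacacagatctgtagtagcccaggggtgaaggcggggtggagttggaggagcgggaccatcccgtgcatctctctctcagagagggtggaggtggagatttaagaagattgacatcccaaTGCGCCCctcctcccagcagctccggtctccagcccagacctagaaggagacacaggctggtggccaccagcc

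Counted over the whole windows, the core was found 3 times in *Mt1*, 4 times in *Mt2*, 2 times in *Slc30a1* and 3 times in *Slc30a10*, where 2 of the 3 matches overlap on opposite strands. *Slc39a8* has 2 starts in the table, with 0 matches at the first and 1 at the second. Of 32851 windows of all genes, 25.7% held at least 1 match, 1.97% held 3 or more and 0.517% held 4 or more. The RefSeq start of *Mt1* lies close to the furthest upstream start in GENCODE, which places the starts of its 2 other transcripts 122 and 152 bases downstream, so the matches at bases 3 and 21 after the RefSeq start lie upstream of those. For *Mt2* the annotated starts lie 46 and 242 bases downstream of the RefSeq start. The other motifs searched, on both strands, were TTCNNNGAA (STAT), CACGTG (E box) and TGACNNNGC (antioxidant response element core), which were found in 8.30%, 7.15% and 12.4% of all windows. The STAT motif had no match in these windows, the E box had 1 at the second start of *Slc39a8*, and the antioxidant core had 1 each in *Mt2*, *Slc30a1* and the first start of *Slc39a8*. A match describes letters only, and binding was not measured.

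**Figure D1:**
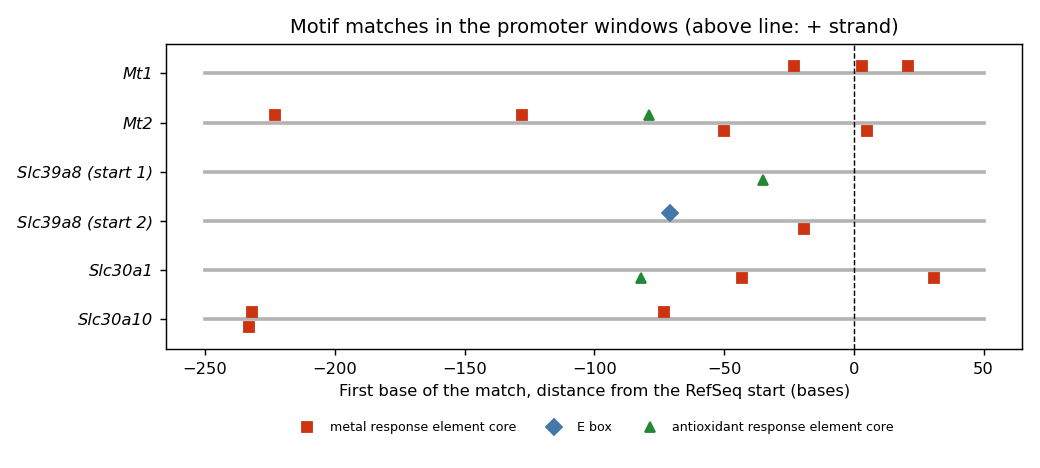
Positions of motif matches in the windows of 5 genes, as the distance in bases of the match's first base from the RefSeq start (dashed line); marks above a line are on the plus strand and marks below it on the minus strand. The *Mt2* window holds 4 metal response element cores, the most among these windows.

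RNA was sequenced with a 3′-end method (QuantSeq), which yields about 1 read per transcript, so that counts do not grow with transcript length. Other differences between genes in how reads are gained were not measured. Ranks and ratios of different genes below therefore describe counts. Of the 8 libraries, endotoxemic libraries 3 and 4 held the same count as libraries 1 and 2 on every row, so that each such pair entered once and every group had 2 distinct libraries. Total counts ranged from 9142116 to 15222439 per library, and the endotoxemic libraries were the shallowest. The ribosomal row *Rn45s* took 7.17% to 8.26% of the counts in the control and endotoxemic libraries, and 4.80% and 9.38% in LGK974 libraries 1 and 2, the lowest and highest shares. With that row left out, 0 of the 7 members were again called between the LGK974 and endotoxemic groups. The order of rows was compared with gene positions, because 526 rows (2.26%) carried a symbol whose neighbours in the file were not its neighbours in the genome. None of the 7 members was among them at a distance limit of 1, 2 or 5 Mb, and the rows of *Mt3*, *Mt2*, *Mt1* and *Nup93* followed each other as the genes do on chromosome 8. The labels do not say that libraries of a group came from separate mice, so p-values measure the spread between these libraries only. The 4 control and endotoxemic libraries had 1171 to 3115 counts of *Xist*, expressed from the inactive X chromosome of females, and 0 of the Y-linked *Ddx3y*, whereas the LGK974 libraries had 3 and 7 counts of *Xist* and 1755 and 1392 of *Ddx3y*. The label of male mice is met by the LGK974 libraries in these transcripts and not by the others. An effect of LGK974 and this difference cannot be told apart, and this applies to every comparison with the LGK974 group below.

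In livers of endotoxemic mice, the metallothioneins and *Slc39a14* and *Slc30a10* rose, while *Slc39a8*, *Slc39a4* and *Slc30a1* fell, relative to the control group. A gene was called when its adjusted p, from edgeR's quasi-likelihood test with Benjamini-Hochberg adjustment over the 12701 genes tested, was below 0.05. By this rule LPS raised 4 of the 7 members and lowered 3. Each of the 3 calls lower was lost on leaving out certain single libraries, as given below for each gene. Of all genes tested, 20.4% were called higher and 23% lower. Between the LGK974 and endotoxemic groups 0 of the 7 were called in either direction, beside 2.8% of all genes called higher and 2.82% lower. Between the LGK974 and control groups 3 members were called higher and 1 lower, beside 16.4% and 17.7% of all genes. The first and second comparisons share the endotoxemic libraries, and the comparison of LGK974 with control livers shares libraries with both.

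**Figure D2:**
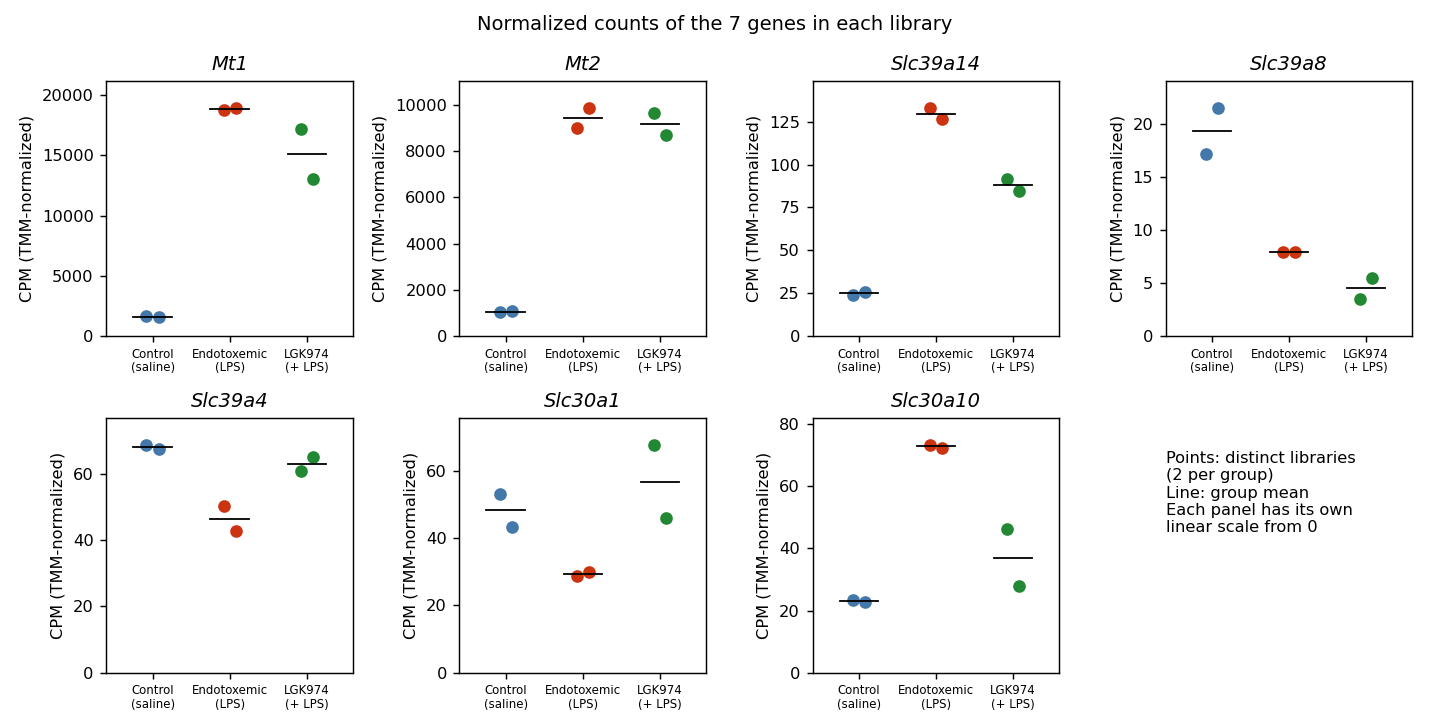
CPM (TMM-normalized) of each gene in the 2 distinct libraries of each group, on linear axes that start at 0 and differ between panels; points are libraries and lines are group means. *Mt1* rises from 1607 CPM in the control group to 18838 CPM in the endotoxemic group, and *Slc39a8* falls from 19.3 to 7.87 CPM.

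*Mt1* (chr8:94179082-94180327, plus strand) was among the most abundant transcripts of the endotoxemic liver. The control libraries had 17630 and 24139 counts of *Mt1*, those given LPS 172035 and 177354, and those given LGK974 with LPS 227767 and 193208. Scaled to CPM (counts scaled to a common library size after TMM normalization), these were 1636 and 1578 under saline, 18771.5 and 18904.5 under LPS, and 17193 and 13075 under LGK974 with LPS. The control libraries lay far below all others, and both LGK974 libraries lay below both endotoxemic ones. Among all rows, *Mt1* ranked 64 and 70 under saline, 7 in both endotoxemic libraries, and 9 and 10 under LGK974 with LPS. The level was 11.7-fold higher in the endotoxemic than in the control group (log2 fold change 3.55 ± 0.22 SE, adjusted p = 5.08e-06, edgeR). Between the LGK974 and endotoxemic groups the log2 difference was -0.32 with a 95% confidence interval of -0.77 to 0.14 and an adjusted p of 0.390, so the levels of these neighbours in the order were not separated by the test. The LGK974 libraries differed from each other, and the difference was -0.52 without LGK974 library 1 (adjusted p = 0.0219) and -0.13 without LGK974 library 2 (adjusted p = 0.614).

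*Mt2* (chr8:94172664-94173568, plus strand) lies beside *Mt1* on the same strand and encodes a closely related protein. Counts of *Mt2* were 11019 and 16681 under saline, 82366 and 92490 under LPS, and 127704 and 128906 under LGK974 with LPS. In CPM these were 1023 and 1090, then 8987 and 9859, then 9640 and 8723. The endotoxemic and LGK974 libraries overlapped, and both control libraries lay below them. *Mt2* moved from rank 116 and 110 to rank 12 in both endotoxemic libraries. It was 8.92-fold higher in the endotoxemic group (log2 fold change 3.16 ± 0.20 SE, adjusted p = 5.45e-06). The log2 difference between the LGK974 and endotoxemic groups was -0.04 with an interval of -0.46 to 0.38 (adjusted p = 0.932), so that changes beyond these bounds lie outside the interval and smaller ones could not be seen with 2 libraries per group. Against the control group, the LGK974 group was higher by 3.24 in *Mt1* and by 3.12 in *Mt2* on the log2 scale (adjusted p = 9.03e-06 and 6.42e-06).

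The ratio of *Mt2* to *Mt1* counts within a library does not depend on depth or scaling. It was 0.625 and 0.691 under saline, 0.479 and 0.522 under LPS, and 0.561 and 0.667 under LGK974 with LPS. Counts of *Mt1* thus exceeded those of *Mt2* in all 6 libraries. The group means were 0.658 ± 0.0467, 0.5001 ± 0.0302 and 0.614 ± 0.0753 (SD, n = 2), and both endotoxemic libraries lay below the other 4. No test of the ratio was run.

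*Slc39a14* (ZIP14, chr14:70303469-70351425, minus strand) imports zinc, iron and manganese into hepatocytes and is known as an acute-phase transporter. Saline gave 260 and 394 counts, LPS 1218 and 1190, and LGK974 with LPS 1213 and 1250. The CPM were 24.1 and 25.8, then 133 and 127, then 91.6 and 84.6. The 3 groups did not overlap, with the control group lowest and the endotoxemic group highest. The endotoxemic group was 5.203-fold above the control group (log2 fold change 2.38 ± 0.19 SE, adjusted p = 2.02e-05). The LGK974 group was 1.82 above the control group on the log2 scale (adjusted p = 0.000109). Against the endotoxemic group it had a log2 difference of -0.56 with an interval of -0.97 to -0.15, which did not pass adjustment over all genes (adjusted p = 0.105). That difference was -0.62 without LGK974 library 1 (adjusted p = 0.0396) and -0.50 without LGK974 library 2 (adjusted p = 0.116).

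*Slc39a8* (ZIP8, chr3:135825279-135888572, plus strand) carries zinc and manganese and in the liver takes manganese back from bile. The control libraries had 185 and 328 counts, those given LPS 72 and 74, and those given LGK974 with LPS 46 and 81. In CPM the groups stood at 17.2 and 21.4, 7.86 and 7.89, and 3.47 and 5.48, so that no group overlapped another. This was the reverse order of that seen for *Slc39a14* in the control and endotoxemic groups. *Slc39a8* was 2.45-fold lower in the endotoxemic than in the control group (log2 fold change -1.29 ± 0.31 SE, adjusted p = 0.00828), and the call was lost without endotoxemic library 1, endotoxemic library 2 or control library 2 (adjusted p = 0.0652, 0.0601 and 0.0682). It was 4.30-fold lower in the LGK974 than in the control group (log2 fold change -2.10 ± 0.31 SE, adjusted p = 0.000953), a call kept in each of the 18 alternative analyses. The log2 difference of -0.81 (95% interval -1.53 to -0.09) between the LGK974 and endotoxemic groups had an adjusted p of 0.171, and it was -0.52 without LGK974 library 1 and -1.18 without LGK974 library 2 (adjusted p = 0.298 and 0.0502).

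*Slc39a4* (ZIP4, chr15:76612383-76617384, minus strand) is best known as the zinc importer of the intestine. In these livers it had 740 and 1032 counts under saline, 460 and 401 under LPS, and 806 and 960 under LGK974 with LPS. These correspond to 68.7 and 67.4 CPM, 50.2 and 42.7 CPM, and 60.8 and 65.0 CPM. The endotoxemic libraries were the lowest, and the LGK974 libraries lay between them and the control libraries. The endotoxemic group was 1.46-fold lower than the control group (log2 fold change -0.55 ± 0.19 SE, adjusted p = 0.0418). This call stood close to the threshold and was lost on leaving out any 1 of the 4 control or endotoxemic libraries (adjusted p from 0.134 to 0.257), without a filter on low counts (0.0989), with upper-quartile scaling (0.0595) and without the ribosomal row *Rn45s* (0.0502). The LGK974 group differed by 0.44 from the endotoxemic group and by -0.11 from the control group on the log2 scale (adjusted p = 0.210 and 0.680).

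*Slc30a1* (ZnT1, chr1:191906767-191913247, plus strand) is the zinc exporter of the plasma membrane and a known target of MTF1. It had 573 and 665 counts under saline, 265 and 280 under LPS, and 898 and 679 under LGK974 with LPS. In CPM these were 53.2 and 43.5, 28.9 and 29.8, and 67.8 and 45.9. The endotoxemic libraries lay below all others, and the control and LGK974 libraries overlapped. The direction in the endotoxemic group was thus opposite to that of *Mt1* and *Mt2*. The endotoxemic group was 1.64-fold lower than the control group (log2 fold change -0.72 ± 0.24 SE, adjusted p = 0.0366), but the call was lost on leaving out any 1 of the 4 libraries compared (adjusted p from 0.0734 to 0.217). The LGK974 group stood 0.95 above the endotoxemic group on the log2 scale (95% interval 0.41 to 1.49), with an adjusted p of 0.0525. That p fell below the threshold with DESeq2 (0.0188), with a block for replicate number (0.0488) and without LGK974 library 2 (0.00284, log2 difference 1.21), and it was above it with limma voom and without LGK974 library 1 (0.0516, log2 difference 0.65). The LGK974 and control groups differed by 0.24 (adjusted p = 0.475), and leaving out 1 library at a time gave -0.07 (without LGK974 library 1) to 0.49 (without LGK974 library 2), so the sign was not stable.

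*Slc30a10* (chr1:185454848-185468762, plus strand) exports manganese from the cell, and its loss is known to cause manganese overload. Saline gave 251 and 348 counts, LPS 672 and 680, and LGK974 with LPS 614 and 411. The CPM were 23.3 and 22.7, 73.3 and 72.5, and 46.3 and 27.8. The LGK974 libraries lay between the other groups and were unlike each other. The level was 3.17-fold higher in the endotoxemic than in the control group (log2 fold change 1.66 ± 0.26 SE, adjusted p = 0.000867). The log2 difference between the LGK974 and endotoxemic groups was -0.98 (95% interval -1.54 to -0.41), with an adjusted p of 0.0571 by edgeR, 0.0153 by DESeq2 and 0.0430 by limma voom. Without LGK974 library 1 it was -1.39 (adjusted p = 0.000539) and without LGK974 library 2 it was -0.65 (adjusted p = 0.0607). The LGK974 group stood 0.69 above the control group (adjusted p = 0.0646), a value that was 1.01 without LGK974 library 2 (adjusted p = 0.00104) and 0.28 without LGK974 library 1.

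**Figure D3:**
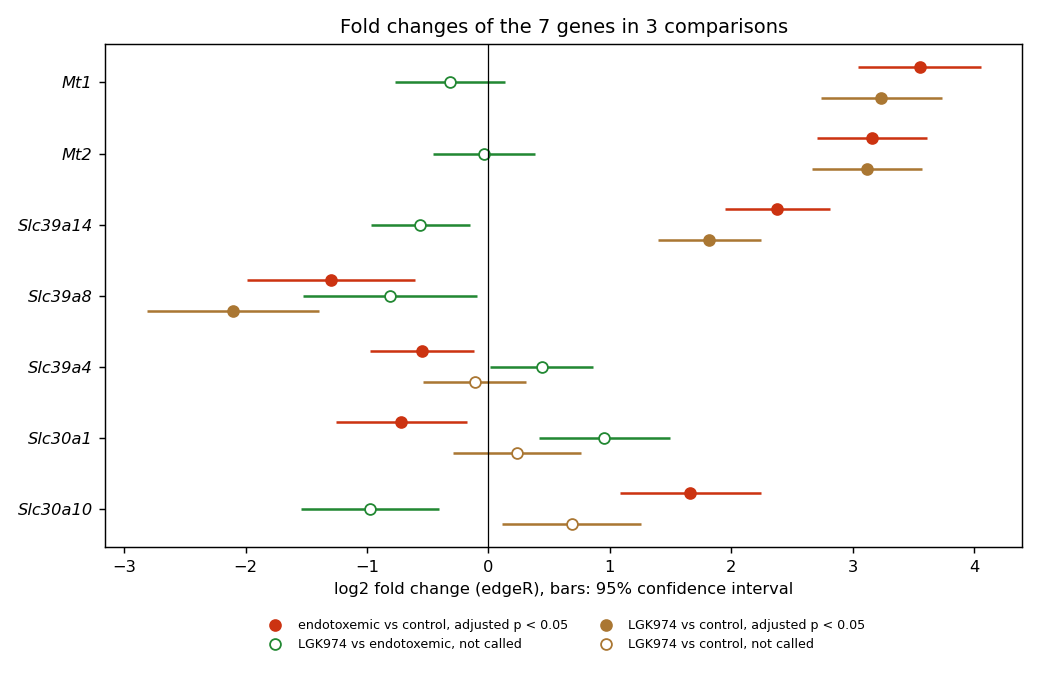
Log2 fold changes of the 7 genes in the 3 comparisons (edgeR), with 95% confidence intervals as bars; filled points have an adjusted p below 0.05. In the endotoxemic against the control group the values run from -1.29 for *Slc39a8* to 3.55 for *Mt1*, and no point of the LGK974 against the endotoxemic group is filled.

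Before adjustment, 5 of the 7 members had a p under 0.05 between the LGK974 and endotoxemic groups, 2 of them higher and 3 lower, beside 2911 of the 12701 genes tested. After adjustment, edgeR called 0, DESeq2 called 2 (*Slc30a1* higher and *Slc30a10* lower) and limma voom called 1 (*Slc30a10*), while of all genes these tools called 714, 1227 and 689. In 6 of the 7 genes the LGK974 and endotoxemic means lay on the same side of the control mean. In *Slc30a1* they lay on opposite sides, though not without LGK974 library 1. Both differences use the same control libraries, and the share of all genes on the same side was not counted. In *Slc39a4*, which is among the 6, the LGK974 group differed from the control group by only -0.11 on the log2 scale (edgeR adjusted p = 0.680). *Mt1*, *Mt2*, *Slc39a14* and *Slc39a8* passed the threshold between the LGK974 and control groups. *Slc39a4*, *Slc30a1* and *Slc30a10* did not, although a p above the threshold does not show equal levels.

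Among the other metallothioneins, *Mt3*, best known in the brain, had 0 counts in both control libraries, 9 and 11 under LPS and 10 and 18 under LGK974 with LPS. With no control counts, *Mt3* passed the filter only through the other groups, so a call could only be higher. *Mt3* was called higher in both groups against the control group (edgeR adjusted p = 0.00691 and 0.00943), at low counts. This is not read as support. *Mt4*, a metallothionein of squamous epithelia, had 0 counts in the control and LGK974 libraries and 15 and 4 under LPS, and it did not pass the filter.

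Of the 14 ZIP importers, 12 passed the filter, and in endotoxemia 4 rose, 3 fell and 5 were not called, beside 20.4% of all genes called higher and 23% lower. Nothing particular to this list, or to the lists below, is read from such counts. Their median log2 fold change was 0.27, beside 0.01 for all genes tested. The counts of *Slc39a10*, a plasma membrane importer whose gene is known to be repressed by MTF1, were 21 and 30 under saline, 261 and 301 under LPS and 248 and 281 under LGK974 with LPS. It had the largest rise of the family (log2 fold change 3.95 ± 0.27 SE, adjusted p = 7.80e-06), above that of *Slc39a14*. *Slc39a6*, a relative of *Slc39a10*, rose by 2.15 and *Slc39a7*, which releases zinc from the endoplasmic reticulum and Golgi, by 0.96 on the log2 scale (adjusted p = 0.00261 and 0.0183). The call for *Slc39a7* was lost without endotoxemic library 2 or control library 1. *Slc39a11* fell (log2 fold change -1.21, adjusted p = 0.00150), beside *Slc39a8* and *Slc39a4*.

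Between the LGK974 and endotoxemic groups, 6 of the 12 importers had an unadjusted p under 0.05, 2 higher and 4 lower, beside 2911 of all genes. DESeq2 and limma voom each called 1, beside 1227 and 689. *Slc39a11* had counts of 213 and 193 under LPS and 481 and 658 under LGK974 with LPS. It was the 1 importer called by edgeR (log2 fold change 0.88 ± 0.21 SE, adjusted p = 0.0421). Of all genes, edgeR called 2.8% higher and 2.82% lower. This call was lost on leaving out any 1 of the endotoxemic or control libraries (adjusted p from 0.104 to 0.293), with the block for replicate number (0.0519) and with only these 2 groups in the fit (0.0976). Against the control group, LGK974 livers had 3 importers higher and 1 lower, beside 16.4% and 17.7% of all genes, led by *Slc39a10* at 3.26, *Slc39a8* at -2.10 and *Slc39a14* at 1.82 on the log2 scale. The other one higher, *Slc39a6* at 1.23 (adjusted p = 0.0432), lost its call with the replicate block (0.0535), with limma voom (0.0580), with only the 2 groups in the fit (0.0916), and without either endotoxemic library, control library 1 or LGK974 library 1.

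Of the 10 ZnT exporters, 7 passed the filter, and in endotoxemia 4 rose, 1 fell and 2 were not called, with a median log2 fold change of 0.97 (all genes: 20.4% higher, 23% lower, median 0.01). Besides *Slc30a10* at 1.66, the exporters called higher were *Slc30a5* at 1.06, *Slc30a4* at 0.99 and *Slc30a7* at 0.97 (adjusted p = 0.00939, 0.0281 and 0.00986), all known to load zinc into the secretory pathway or vesicles. Each of these 3 calls was lost on leaving out certain libraries, with all log2 fold changes still above 0. That of *Slc30a5* was lost without endotoxemic library 1 (0.92) or control library 1 (0.99), that of *Slc30a4* without endotoxemic library 1 (0.83), endotoxemic library 2 (1.18) or control library 2 (0.70), and that of *Slc30a7* without endotoxemic library 2 (0.67), control library 1 (0.99) or control library 2 (0.96). *Slc30a1* was the exporter called lower. Between the LGK974 and endotoxemic groups 0 of 7 exporters were called by edgeR, 3 had an unadjusted p under 0.05, DESeq2 called 2 and limma voom called 1, beside 714, 2911, 1227 and 689 of the 12701 genes tested. Against the control group, *Slc30a4* was higher in the LGK974 group by 1.04 (adjusted p = 0.0270), a call lost without control library 2.

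**Figure D4:**
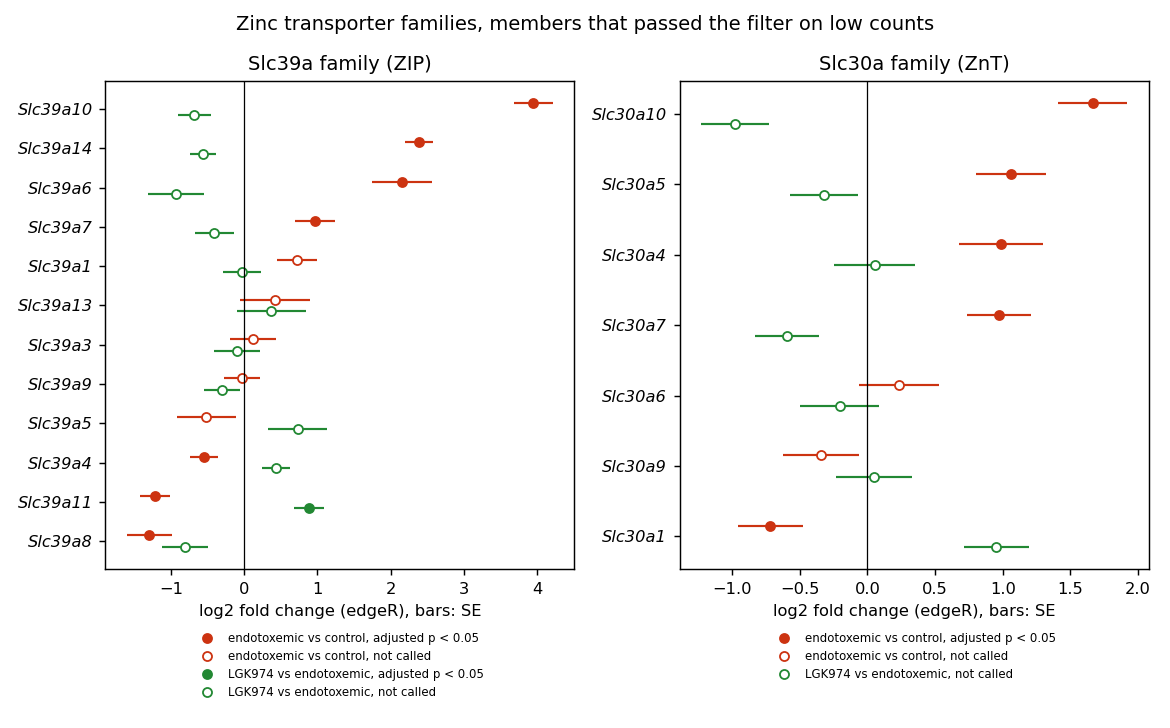
Log2 fold changes (edgeR) of the 12 ZIP and 7 ZnT genes that passed the filter on low counts, ordered by the value in the endotoxemic against the control group; bars are SE and filled points have an adjusted p below 0.05. *Slc39a10* at 3.95 and *Slc30a10* at 1.66 stand at the top of their families, and *Slc39a11* is the filled point of the LGK974 against the endotoxemic group.

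Genes tied to transcription in response to metals were mixed. Of 6 genes listed, LPS raised 2 and lowered 1, beside 20.4% and 23% of all genes: *Slc39a10* at 3.95 and *Ndrg1*, a stress-induced gene, at 0.52 (adjusted p = 0.0473), and *Gclc*, which encodes an enzyme of glutathione synthesis, at -1.72 (adjusted p = 0.00248). The call for *Ndrg1* was lost on leaving out any 1 of the 4 libraries. *Mtf1*, singled out for its role after its values were seen, had 550 and 645 counts under saline, 637 and 492 under LPS and 718 and 1102 under LGK974 with LPS. Its log2 fold change of 0.39 ± 0.24 SE in the endotoxemic group was not called (adjusted p = 0.219). In LGK974 against control livers 2 were higher and 1 lower, beside 16.4% and 17.7% of all genes, with *Slc39a10* at 3.26, *Gclc* at -1.75 and *Ndrg1* at 0.64, the last lost without any 1 of the control or endotoxemic libraries. Comparing LGK974 with endotoxemic livers, 0 of the 6 were called by edgeR, DESeq2 or limma voom. Of the 12701 genes tested, these tools called 714, 1227 and 689. An unadjusted p under 0.05 was found for 1 of the 6, beside 2911 of all genes.

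Among 6 manganese and iron carriers on rows in genomic order, 2 rose and 1 fell in endotoxemia, beside 20.4% and 23% of all genes. *Slc11a2* (DMT1), an importer of iron and manganese, had 161 and 275 counts under saline and 1051 and 1010 under LPS, a log2 rise of 2.75 (adjusted p = 1.84e-05). *Tmem165*, a Golgi protein of manganese supply, rose by 1.57 (adjusted p = 0.00316). *Slc40a1* (ferroportin), the iron exporter, had 1054 and 1627 counts under saline, 22 and 27 under LPS and 44 and 242 under LGK974 with LPS, a log2 fold change of -5.27 (adjusted p = 0.000218). Against the control group, the LGK974 group also had 2 higher and 1 lower, beside 16.4% and 17.7% of all genes, with *Slc40a1* at -3.36, *Slc11a2* at 2.48 and *Tmem165* at 0.92, the last of these lost without either control library, either endotoxemic library or LGK974 library 1, with the replicate block (adjusted p = 0.0574), with limma voom (0.0548) and with only the 2 groups in the fit (0.0823). Of the 6, 0 were called between the LGK974 and endotoxemic groups by edgeR, beside 714 of the 12701 genes tested. DESeq2 and limma voom called 1 each, beside 1227 and 689, and 2 of the 6 had an unadjusted p under 0.05, beside 2911. The log2 difference of *Slc40a1* between these groups, 1.90 with both LGK974 libraries (adjusted p = 0.109), was 2.63 without LGK974 library 1 (adjusted p = 1.34e-05) and 0.33 without LGK974 library 2 (adjusted p = 0.563). Its difference from the control group was -2.64 without LGK974 library 1 and -4.93 without LGK974 library 2.

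Copper, the other metal that metallothioneins bind, gave 4 genes higher and 4 lower of the 10 tested in endotoxemia, beside 20.4% and 23% of all genes. The metalloreductase *Steap4* rose from 222 and 430 counts to 12665 and 11208 (log2 fold change 5.72 ± 0.43 SE, adjusted p = 1.29e-05). *Steap3*, another metalloreductase, fell by 3.11 and *Ccs*, the copper chaperone of superoxide dismutase, fell by 1.74 on the log2 scale. In the LGK974 group against the control group, 3 were higher and 3 lower, beside 16.4% and 17.7% of all genes, with *Steap4* at 5.43, *Steap3* at -2.05 and *Ccs* at -1.65. The *Steap3* value was -1.46 without LGK974 library 1 and -3.08 without LGK974 library 2, and its call was lost without control library 1 or 2. That of *Steap4* was 4.71 without LGK974 library 1. Of the 10, 0 were separated between the LGK974 and endotoxemic groups by edgeR, DESeq2 or limma voom. Of the 12701 genes tested, these tools called 714, 1227 and 689. An unadjusted p under 0.05 was found for 2 of the 10, beside 2911 of all genes. Without LGK974 library 1 the log2 differences between these groups were -1.01 for *Steap4* and 1.64 for *Steap3*. Without LGK974 library 2 they were 0.18 and 0.03.

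Glucocorticoids, interleukin 6 and oxidative stress are known inducers of *Mt1* and *Mt2*, and genes of these responses were counted beside them. Of 10 genes listed as induced by glucocorticoids, 3 rose and 2 fell in endotoxemia, counts near the 20.4% and 23% of all genes. The leading ones were *Lcn2*, an iron-siderophore-binding acute-phase protein, at 7.89, the cell cycle inhibitor *Cdkn1a* at 5.54, and *Tsc22d3*, a classical glucocorticoid target, at -2.70 on the log2 scale. *Tsc22d3* had 825 and 1092 counts under saline, 114 and 97 under LPS and 366 and 597 under LGK974 with LPS. It was 1.58 higher in the LGK974 than in the endotoxemic group (adjusted p = 0.0107), and *Cdkn1a* was lower (log2 fold change -0.94, adjusted p = 0.0366). The *Tsc22d3* call was lost without endotoxemic library 1 or 2, and the *Cdkn1a* call without any 1 of the endotoxemic or control libraries and with only the 2 groups in the fit (adjusted p = 0.0919). Against the control group the LGK974 group had 3 higher and 2 lower, beside 16.4% and 17.7% of all genes, with *Lcn2* at 7.40, *Cdkn1a* at 4.60 and *Fkbp5*, another glucocorticoid target, at 1.46.

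The interleukin 6 list was the one most affected by row order. Of its 18 genes, 9 lay on rows in order, and 7 of these rose and 1 fell in endotoxemia, with a median log2 fold change of 2.26 (all genes: 20.4% higher, 23% lower, median 0.01). These included *Lcn2*, which is on both lists, *Socs3*, a feedback inhibitor of STAT3, at 3.61 and the heme carrier *Hpx* at 2.77. With all 18 rows as named, 8 were higher and 9 lower, and with symbols reassigned by genomic position 16 were higher and 1 lower. This reassignment moved only the counts of the endotoxemic and LGK974 libraries and kept the control counts under the symbols as named. The 7 members and both transporter families lay on rows in order and had the same numbers of calls in each direction after reassignment. With LGK974 against LPS alone, edgeR called 0 of 9, beside 714 of the 12701 genes tested. DESeq2 and limma voom called 1 each, beside 1227 and 689, and 2 of the 9 had an unadjusted p under 0.05, beside 2911. Relative to the control group, LGK974 livers had 7 of the 9 higher and 1 lower, beside 16.4% and 17.7% of all genes, with *Lcn2* at 7.40, *Socs3* at 2.85 and *Hpx* at 2.76.

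Of 6 genes of the NRF2 oxidative stress response on rows in order, 2 rose and 3 fell in endotoxemia, beside 20.4% and 23% of all genes. The cystine importer *Slc7a11* had 1 and 0 counts under saline, 29 and 43 under LPS and 11 and 12 under LGK974 with LPS. It passed the filter on low counts only through the groups given LPS, so a call could only be higher. *Gclm*, of glutathione synthesis, and *Nqo1*, a quinone reductase, were lower (log2 fold changes -2.44 and -2.28, adjusted p = 7.50e-05 and 0.00333). With LGK974 against LPS alone, edgeR and limma voom called 0 of 6, beside 714 and 689 of the 12701 genes tested. DESeq2 called 2 of the 6, beside 1227, and 3 had an unadjusted p under 0.05, beside 2911. The LGK974 group had 2 higher and 3 lower against the control group, beside 16.4% and 17.7% of all genes, with *Gclm* at -1.88 and *Nqo1* at -1.59, the latter lost without control library 1.

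The genes whose pattern over the 6 libraries was nearest to each of the members most raised in endotoxemia were found by the root mean square difference of log2 CPM, each gene centred on its mean. Nearest to *Mt1* were *Pirb* (0.137), *3110082I17Rik* (0.149) and *Plac8* (0.166). Nearest to *Mt2* were *Col4a1* (0.0543), *Mthfd1l* (0.161) and *Mt1* (0.191), so that the neighbouring metallothionein was among the 3 nearest. Nearest to *Slc39a14* were *Apex1* (0.0747), *Psmb10* (0.127) and *Ccdc173* (0.130), and nearest to *Slc30a10* were *Ptpn12* (0.0941), *Stx18* (0.0956) and *Nkrf* (0.112). These distances describe 6 libraries in 3 groups and carry no test.

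The samples were whole liver, in which fewer cells of a type and less RNA per cell cannot be told apart. The counts of markers higher or lower in endotoxemia given here stand beside 20.4% of all genes called higher and 23% lower. The summed level of 5 hepatocyte markers on rows in order, *Alb* among them, was 74655 and 107056 CPM under saline, 30002 and 46573 under LPS, and 32236 and 34642 under LGK974 with LPS, and all 5 were lower in the endotoxemic group. The 4 neutrophil markers in order were all higher in that group, with sums of 3.27 and 4.08 CPM under saline, 72.7 and 79.2 under LPS and 44.4 and 46.4 under LGK974 with LPS. Of the 5 erythroid markers 4 were higher in the endotoxemic group, and the sum was 2743 and 2965 CPM under saline, 6569 and 7705 under LPS and 2714 and 4172 under LGK974 with LPS. Of the 5 Kupffer cell markers in order 1 rose and 2 fell in endotoxemia, with sums of 95.5 and 100.7 CPM under saline, 117 and 138 under LPS and 85.5 and 119 under LGK974 with LPS. Sinusoidal endothelial, stellate and cholangiocyte markers moved both ways, with 1 of 5 higher in each list and 2, 3 and 1 lower. The sinusoidal endothelial sum was 188 and 191 CPM under saline, 404 and 408 under LPS and 438 and 545 under LGK974 with LPS. The stellate sum was 440.2 and 461 CPM, 563 and 604 CPM, and 481 and 573 CPM in the same order of groups. The cholangiocyte sum was 29.0 and 29.2 CPM, 83.4 and 88.4 CPM, and 38.0 and 92.3 CPM. These sums rose in endotoxemia through the 1 marker called higher in each list (*Lyve1*, *Dcn* and *Sox9*), while the median log2 fold changes of the lists were negative, at -0.72, -1.02 and -2.06. In the LGK974 against the control group the sinusoidal endothelial list had 1 higher and 3 lower, with a median of -1.21. Of all genes, 16.4% were called higher and 17.7% lower in that comparison. On rows in order, the hepatocyte list had 0 higher and 4 lower there, the Kupffer cell list 1 and 2, and the neutrophil list 3 and 0. The stellate list had 0 higher and 2 lower, the cholangiocyte list 1 and 0, and the erythroid list 1 and 1. Exocrine pancreas markers, whose tissue is rich in zinc transporters, summed to at most 2.79 CPM in any library, and 1 of the 6 was at 0 in every library. In the LGK974 against the endotoxemic group, 3 of the 5 erythroid markers were called lower (median log2 fold change -1.20), where 2.82% of all genes were. In the same comparison 1 Kupffer cell marker in order (*Clec4f*, -1.30) and 1 sinusoidal endothelial marker (*Clec4g*, -2.19) were called lower and 1 stellate marker (*Col1a1*, 1.59) higher. By edgeR 0 of the hepatocyte, neutrophil and cholangiocyte markers in order were called. DESeq2 called 2 hepatocyte markers higher, 1 neutrophil marker lower and 1 cholangiocyte marker higher. For limma voom these were 1 hepatocyte marker higher and 1 neutrophil marker lower. Of all genes, edgeR, DESeq2 and limma voom called 714, 1227 and 689. The part of these cell populations in the levels of the 7 genes was not tested.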

How the data were processed

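Liver RNA was sequenced with a 3′-end kit (QuantSeq), and the authors deposited raw counts of reads per gene symbol on 23282 rows for 8 libraries. The submitters' processing notes name Bowtie2, edgeR and the build mm10, and other settings are not given in the sources used here. Where 2 libraries agreed on every row, 1 was kept, giving 2 per group. The analysis used edgeR 4.0.16 in R 4.3.3 (filterByExpr, TMM, quasi-likelihood F test, Benjamini-Hochberg over 12701 genes, threshold 0.05) in 1 model of all 3 groups, and SEs follow from the F statistics. The study's methods give a general test for differences among groups and do not tie it to the RNA-seq counts, and a count test was used here.

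Total counts were 9142116 to 15222439 per library, where 3 counts, the floor used, equal 0.197 to 0.328 CPM and cover counting error only. A row was out of order when its gene lay over 2 Mb from the neighbouring ordered genes by RefSeq positions on GRCm38. Gene coordinates are from GENCODE on the same build. The fit and the row placement were tested on simulated data.

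The members, gene lists, markers and tests were chosen with earlier results of these data known. The genes named are the 7 members, up to 3 genes per list and comparison with the largest change among those called on rows in order, and the 3 genes nearest to each of 4 members, besides a few named for their role. Alternatives were DESeq2 1.42.0, limma 3.58.1 (voom), other filters and scalings, leaving out each library, a block for replicate number, and other treatments of duplicates and rows.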

Additional observations from a re-analysis of the deposited data

How the results depend on the processing

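For the 7 genes, 378 alternative values were computed over 21 tests. Of these 343 stayed on the same side of the threshold, 14 lost a call, 21 gained one and 0 reversed. For the 22 other zinc, metal and stress genes followed in the same way, 1116 of 1188 stayed, 52 lost a call, 20 gained one and 0 reversed. The calls for *Mt1*, *Mt2*, *Slc39a14* and *Slc30a10* in the endotoxemic against the control group were kept in all 18 alternatives. In the LGK974 against the endotoxemic group, genes called higher went from 356 to 881 without a filter, 600 with DESeq2, 1711 with identical libraries as separate samples and 107 with only those 2 groups in the fit, and genes called lower from 358 to 824, 627, 1548 and 162. The members called higher there went from 0 to 1 without a filter, with at least 10 counts in every library, with DESeq2, with upper-quartile factors and with the replicate block, and to 2 with identical libraries as separate samples. The members called lower went from 0 to 1 without a filter, with DESeq2 and with limma voom, and to 3 with identical libraries as separate samples. Entering identical libraries as separate samples counts each endotoxemic library more than once; for the other settings the cause was not tested.

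On leaving out 1 library at a time, genes called in the endotoxemic against the control group ranged from 1517 to 3196 higher and from 1801 to 3523 lower, and members from 4 to 4 and from 0 to 3. For the LGK974 against the endotoxemic group the ranges were 23 to 1175 and 26 to 1067 genes, and 0 to 1 and 0 to 3 members. For the LGK974 against the control group they were 1041 to 2608 and 1331 to 2761 genes, and 3 to 4 and 1 to 1 members. With 1 library left in a group, that library was assumed to vary like those of the other groups. Same-numbered libraries deviated together only weakly (correlations -0.0043 to 0.10), and whether they share more than a number was not tested. With the replicate block, the genes called in the LGK974 against the endotoxemic group were 330 higher and 355 lower, *Slc30a1* passed the threshold at 0.93 (adjusted p = 0.0488), and no other member's call changed. The log2 ratio of *Mt2* to *Mt1* was -0.61, -1.00 and -0.71 in the control, endotoxemic and LGK974 groups with a pseudocount of 0.5 or 1.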
